A study of Rattus norvegicus with 48 samples.

Results

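Angptl4 and other known targets of the peroxisome proliferator-activated receptors (PPARs) were followed through a fast in cerebral endothelial cells (CECs). The set was chosen by name and holds 6 genes of lipid metabolism, Angptl4, Acaa1a, Acaa2, Acot2, Acsl1 and Cat, of 32624 features in the count files. 5 of the 6 had an Ensembl identifier in the tables used here, and all 5 were among the 13050 features with at least 1 read in every sample. Acaa1a was not analysed here. The question was whether known PPAR targets follow the course of Angptl4, which was higher on days 1 and 3 than on day 2.

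Male Wistar-Han rats were fed ad libitum (AL) or left without food for 1 day (F1), 2 days (F2) or 3 days (F3). CECs were sorted from the cortex by CD11b depletion and CD31 selection, with 4 rats per isolation and the tissue of 2 cortices pooled for each digestion, and each group has 3 samples from independent experiments, named i, j and k, with 4 technical replicates each. Messenger RNA was sequenced, and reads assigned to genes ranged from 20718644 to 25960874 per sample. In F1 sample k, 1 technical replicate, d, has a title of this sample and a treatment label of 2 days. Its title placed it in F1, and its counts differed from those of replicates a to c by no more than sampling noise (chi-square per degree of freedom 1.00).

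PPARs are nuclear receptors that bind fatty acids and, paired with the retinoid X receptor, switch on genes for the uptake, activation and oxidation of lipids. During a fast, fatty acids released from adipose tissue reach other tissues, and PPAR targets rise in liver and muscle. Angptl4 encodes a secreted inhibitor of lipoprotein lipase, the enzyme that frees fatty acids from circulating triglycerides. Acsl1 couples long-chain fatty acids to coenzyme A, and Acot2 is a mitochondrial thioesterase that reverses this step. Acaa2 and Acaa1a are thiolases of the last step of beta-oxidation, Acaa2 in mitochondria and Acaa1a in peroxisomes. Cat encodes catalase, which removes the hydrogen peroxide made in peroxisomes.

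Of the 5 genes, only Angptl4 passed the test as higher on days 1 and 3 than in AL, and only Acsl1 as lower. Acot2 was lower on day 3 than on day 2, and Acaa2 and Cat passed the test in no comparison. Values are normalized counts, which are counts scaled by TMM to a common library size. Differences are log2 fold changes (LFC) with the standard error, from the quasi-likelihood test of edgeR with Benjamini-Hochberg adjustment over all 13050 features, and genes with an adjusted p of at most 0.05 were called. In bulk samples, fewer cells of a type and less RNA per cell cannot be told apart.

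Angptl4 (ENSRNOG00000007545) had 9118, 11616 and 11570 normalized counts in the AL samples i, j and k, and 14419, 16578 and 14328 in F1. It had 11885, 12243 and 11789 in F2, and 16587, 16990 and 14854 in F3. Every F1 and F3 sample lay above every AL and F2 sample. The mean was 10768 ± 1429 in AL, 15108 ± 1273 in F1, 11973 ± 239 in F2 and 16144 ± 1135 in F3 (SD, n = 3 each). Against AL the LFC was 0.49 ± 0.10 in F1 (edgeR, adjusted p = 0.0123), 0.15 ± 0.10 in F2 (adjusted p = 0.552) and 0.58 ± 0.10 in F3 (adjusted p = 0.00233). Angptl4 rose again from F2 to F3 (LFC 0.43 ± 0.10, edgeR adjusted p = 0.0256), whereas the fall from F1 to F2 did not pass (LFC -0.34 ± 0.10, edgeR adjusted p = 0.107). DESeq2, an alternative test, called the fall from F1 to F2 (LFC -0.33, DESeq2 adjusted p = 0.0357). The call in F1 was lost without F1 sample j (LFC 0.42, edgeR adjusted p = 0.0698), and the call from F2 to F3 was lost without F2 sample i, F2 sample k, F3 sample i or F3 sample j (adjusted p from 0.0556 to 0.103).

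**Figure D1:**
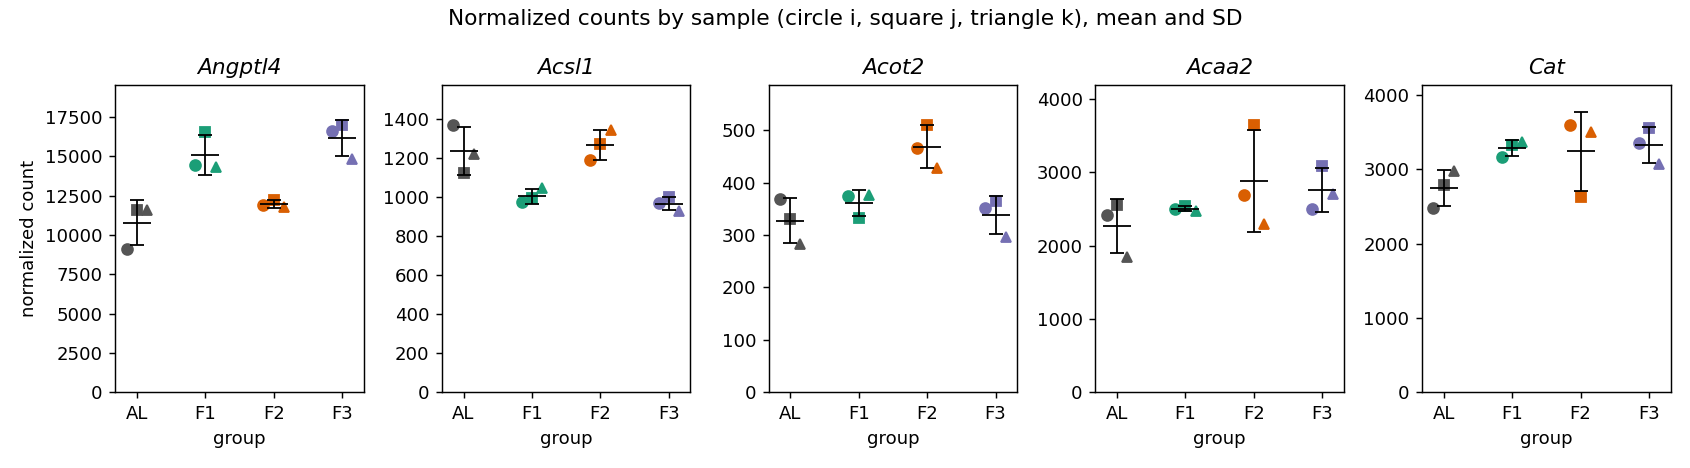
Normalized counts of the 5 genes (vertical axes, from 0) in each group (horizontal axes), with a circle, square or triangle for samples i, j and k, and a bar with error bars for the mean and SD of 3 samples. Angptl4 is higher in all F1 and F3 samples than in all AL and F2 samples, and Acsl1 shows the opposite order.

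Acsl1 (ENSRNOG00000010633) had 1370, 1126 and 1220 normalized counts in AL, 975, 994 and 1049 in F1, 1189, 1274 and 1343 in F2, and 969, 1002 and 931 in F3. Every F1 and F3 sample lay below every AL and F2 sample. The LFC against AL was -0.30 ± 0.08 in F1 (edgeR, adjusted p = 0.0434), 0.03 ± 0.08 in F2 (adjusted p = 0.897) and -0.36 ± 0.08 in F3 (adjusted p = 0.0118), and Acsl1 fell from F2 to F3 (LFC -0.39 ± 0.08, edgeR adjusted p = 0.0167). The rise from F1 to F2 did not pass (edgeR adjusted p = 0.0614). It was called by DESeq2 (LFC 0.34, DESeq2 adjusted p = 0.0122) and without AL sample i (LFC 0.34, edgeR adjusted p = 0.0462). The F1 call was narrow: it was lost in 8 of 12 fits that left out 1 sample (without AL sample i or k, any 1 of the 3 F1 samples or any 1 of the 3 F3 samples, LFC from -0.33 to -0.22, adjusted p from 0.0569 to 0.184) and when replicate d of F1 sample k was dropped (adjusted p = 0.0739). The F3 call was lost without AL sample i (adjusted p = 0.0618) or F3 sample k (adjusted p = 0.0570), and the call from F2 to F3 without F3 sample i (adjusted p = 0.0745) or F3 sample k (adjusted p = 0.0693).

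Acot2 (ENSRNOG00000010134) was the least covered of the 5 genes, with 255 to 515 reads per sample. It had 368, 331 and 283 normalized counts in AL, 375, 332 and 377 in F1, 467, 510 and 429 in F2, and 353, 366 and 297 in F3. The 3 F2 samples were the highest of the 12. Acot2 fell from F2 to F3 (LFC -0.47 ± 0.12, edgeR adjusted p = 0.0357), a call lost without F2 sample i, F2 sample j, or any 1 of the F3 samples (adjusted p from 0.0546 to 0.129). The LFC of F2 against AL, 0.52 ± 0.12, narrowly missed the threshold (edgeR adjusted p = 0.0621), and it passed with DESeq2 (adjusted p = 0.00652), with no filter on low counts (adjusted p = 0.0321) and without AL sample i (LFC 0.61, adjusted p = 0.0466). Acot2 lies among close paralogs, between which reads may be split or removed as multiply matching.

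Acaa2 (ENSRNOG00000013766) ranged from 1850 to 2552 normalized counts in AL, from 2468 to 2538 in F1, from 2295 to 3646 in F2 and from 2498 to 3092 in F3, and all 4 ranges overlapped. The LFC against AL was 0.14 in F1 (95% interval -0.19 to 0.47), 0.34 in F2 (0.01 to 0.67) and 0.28 in F3 (-0.05 to 0.61), with adjusted p of 0.657, 0.362 and 0.270 (edgeR). Cat (ENSRNOG00000008364) ranged from 2483 to 2973 normalized counts in AL, from 3167 to 3372 in F1, from 2629 to 3598 in F2 and from 3072 to 3558 in F3. All F1 and F3 samples of Cat lay above the AL samples, but the LFC of 0.26 in F1 (95% interval 0.02 to 0.50) and 0.28 in F3 (0.04 to 0.51) did not pass (edgeR adjusted p = 0.195 and 0.127). F2 sample j was the lowest fasted sample of Cat. Without it all 3 differences of Cat from AL passed (edgeR adjusted p = 0.0381 in F1, 0.0497 in F2 and 0.0199 in F3). The LFC of Cat was then 0.26 in F1, 0.37 in F2 and 0.28 in F3. Calls over all features also rose without this sample, from 857 to 1468 in F1, 120 to 154 in F2 and 1567 to 2378 in F3. The intervals of both genes include differences of the size seen for Acsl1, so these data do not show that they stayed level.

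**Figure D2:**
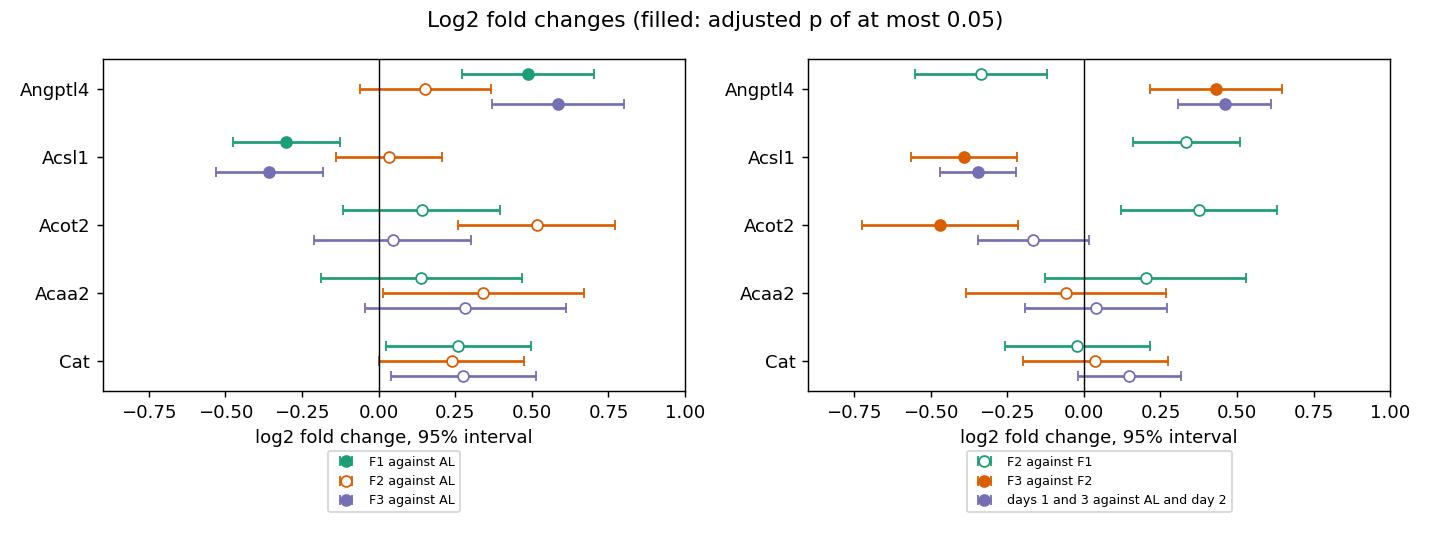
LFC (horizontal axes) of the 5 genes with 95% intervals, for each fasted group against AL on the left and between fasted groups or for days 1 and 3 together on the right, where filled points have an adjusted p of at most 0.05. Angptl4 at 0.49 and 0.58 and Acsl1 at -0.30 and -0.36 are the filled points in F1 and F3 against AL.

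Against AL, 2 of 5 genes were called in F1, beside 6.57% of all features, and 2 of 5 in F3, beside 12%. In F2 edgeR called 0 of 5, beside 0.92% of all features, although 3 had an unadjusted p under 0.05 and DESeq2 called 1. Of all 13050 features, 1697 had an unadjusted p under 0.05 in F2 and DESeq2 called 359. Between fasted groups, edgeR called 0 of 5 from F1 to F2, beside 1.34% (3 at an unadjusted p under 0.05, 2 by DESeq2), and 3 of 5 from F2 to F3, beside 5.88%. From F1 to F2, 2274 of all features had an unadjusted p under 0.05 and DESeq2 called 616. Between F1 and F3 edgeR called 0 of 5 (0 at an unadjusted p under 0.05, 0 by DESeq2), beside 0% of all features. There, 586 of all features had an unadjusted p under 0.05 and DESeq2 called 24.

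The course itself was examined as the mean of F1 and F3 against the mean of AL and F2. This contrast was set up with the course of Angptl4 known, so its value there, an LFC of 0.46 ± 0.07, is a description. Of the other 4 genes, only Acsl1 was called, in the opposite direction (LFC -0.35 ± 0.06, edgeR adjusted p = 0.00155), beside 16% of all features, 9.13% higher and 6.83% lower. It was called in all 12 fits that left out 1 sample (LFC from -0.38 to -0.31). The LFC was 0.04 for Acaa2 (95% interval -0.19 to 0.27), 0.15 for Cat (-0.02 to 0.32) and -0.16 for Acot2 (-0.35 to 0.02), beside an interval of 0.31 to 0.61 for Angptl4, which overlaps that of Cat.

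Within each sample, the reads of each gene were also divided by those of Angptl4, a ratio that does not depend on how libraries are scaled. The log2 ratio was lower in the 6 F1 and F3 samples than in the 6 AL and F2 samples for all 4 genes, by 0.80 for Acsl1, 0.62 for Acot2, 0.40 for Acaa2 and 0.31 for Cat as differences of means. Exact two-sided permutation tests, 4 in all and unadjusted, gave p = 0.00216 for Acsl1, the smallest that 924 groupings allow, 0.00649 for Acot2, 0.0216 for Acaa2 and 0.00866 for Cat. The ratios did not overlap for Acsl1 and overlapped for the other 3. The grouping was taken from Angptl4, which is also the denominator, so a gene that did not change would give a ratio lower by about 0.46. The direction of the 4 differences is therefore set by the construction, and their p-values say nothing of the 4 genes on their own.

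**Figure D3:**
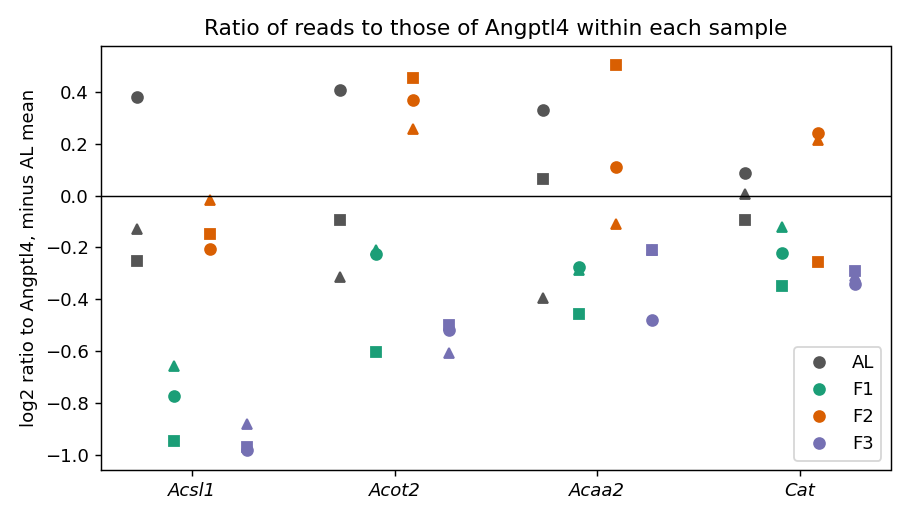
Log2 ratio of the reads of each gene to those of Angptl4 in the same sample, less the AL mean (vertical axis), by gene (horizontal axis), coloured by group with a symbol for samples i, j and k. For Acsl1 all 6 F1 and F3 samples lie below all AL and F2 samples.

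The promoters of 5 of the 6 genes are in RefSeq's table for the build GRCr8, as 250 bases before and 50 after the annotated start, and Acaa2 is not among them. They were searched on both strands for the 6-base site AGGTCA and for AGGTCANAGGTCA, the repeat that PPARs and their partner bind, with up to 2 mismatches. Cat held 1 such site, within 1 such repeat with 2 mismatches that begins 169 bases before the start, and Angptl4, Acsl1, Acot2 and Acaa1a held neither. Of 33469 promoters of this length, 16.2% held the single site and 3.77% the repeat. The 2 genes that moved in opposite directions, and the 1 gene with a match, are shown 5′ to 3′ on the gene's strand, with the match in capitals. They are Angptl4 at chr7:15258632-15258931, minus strand, Acsl1 at chr16:52532343-52532642, minus strand, and Cat at chr3:110329477-110329776, minus strand.
Angptl4: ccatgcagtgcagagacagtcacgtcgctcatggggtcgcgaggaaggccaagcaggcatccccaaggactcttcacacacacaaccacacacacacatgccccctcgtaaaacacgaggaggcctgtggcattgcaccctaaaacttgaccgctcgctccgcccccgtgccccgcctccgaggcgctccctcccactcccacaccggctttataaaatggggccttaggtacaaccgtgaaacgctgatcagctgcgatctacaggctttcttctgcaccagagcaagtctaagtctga
Acsl1: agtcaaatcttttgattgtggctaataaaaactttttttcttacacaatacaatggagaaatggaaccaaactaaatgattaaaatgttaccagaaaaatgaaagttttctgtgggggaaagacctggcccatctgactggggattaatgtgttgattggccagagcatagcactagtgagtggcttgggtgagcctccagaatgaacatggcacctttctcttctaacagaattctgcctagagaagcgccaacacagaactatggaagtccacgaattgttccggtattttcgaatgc
Cat: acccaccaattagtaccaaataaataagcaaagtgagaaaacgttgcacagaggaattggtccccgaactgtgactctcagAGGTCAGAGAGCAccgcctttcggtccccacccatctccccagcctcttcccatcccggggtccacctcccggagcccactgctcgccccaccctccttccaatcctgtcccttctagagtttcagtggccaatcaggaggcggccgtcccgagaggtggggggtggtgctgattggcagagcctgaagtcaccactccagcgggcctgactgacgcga
A match is a description of letters and not of binding, and the absence of a match in these windows says nothing of sites elsewhere.

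Other genes of the same pathways came from 8 lists (PPAR signalling, fasting-responsive PPAR targets, mitochondrial and peroxisomal oxidation, thioesterases, acyl-CoA synthetases, thiolases and the lipoprotein lipase system). Beyond the 6 genes they name 120 genes, of which 38 had an identifier and were tested. Of these 38, 2 rose and 2 fell in F1 (all features 3.92% and 2.64%), and 3 rose and 5 fell in F3 (6.28% and 5.73%). In F2 edgeR called 0 of 38 (all features 0.92%), with 9 at an unadjusted p under 0.05 and 2 called by DESeq2. Of all 13050 features, 1697 had an unadjusted p under 0.05 in F2 and DESeq2 called 359. In days 1 and 3 against AL and F2, 4 were higher and 5 lower (all features 9.13% and 6.83%). The median LFC of the 38 was -0.03 in that contrast, against -0.01 over all features. In F1 the counts depended on single samples. They were 0 up and 0 down without F1 sample j, 0 and 1 without AL sample i, 1 and 0 without AL sample k, and 1 and 1 without F1 sample i or F3 sample k. They were 1 and 2 without F1 sample k, F2 sample k or F3 sample i, 1 and 3 without F3 sample j, and 4 and 2 without AL sample j or F2 sample j. Calls over all features moved too, from 857 to 304 without F1 sample j, 384 without AL sample i and 421 without AL sample k. They were 432 without F1 sample i, 1468 without F2 sample j and 552 to 816 without any other sample. In F3 the counts of the 38 moved to 1 up and 1 down without F3 sample i, 3 and 3 without F3 sample k, 2 and 3 without AL sample i and 3 and 2 without AL sample k. Calls over all features moved from 1567 to 784, 942, 984 and 1059, in that order. Without F2 sample j the counts in F3 were 5 up and 6 down, beside 2378 calls over all features. In the contrast of days 1 and 3 the counts of the 38 moved to 3 and 3 without AL sample i or F1 sample i, and to 4 and 3 without F3 sample k. Calls over all features moved from 2082 to 1504, 1618 and 1619, in that order. The counts were 3 and 4 without F3 sample i, 4 and 4 without F1 sample j, and 5 and 5 without F2 sample j. Beside these, 1494, 1460 and 2357 of all features were called, in that order.

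The genes called with the direction of Angptl4 included 3 acyl-CoA dehydrogenases and 1 thioesterase. Acadm, the medium-chain acyl-CoA dehydrogenase, had 6682 ± 317 normalized counts in AL, 8601 ± 302 in F1, 7722 ± 591 in F2 and 8449 ± 302 in F3 (SD, n = 3 each), and rose in F1 and F3 (LFC 0.36 and 0.34, edgeR adjusted p = 0.0117 and 0.00940). Acad9, needed for the assembly of respiratory complex I, rose in F1 and F3 (LFC 0.46 and 0.81, edgeR adjusted p = 0.0420 and 0.00102), and its F2 value of 0.51 did not pass (edgeR adjusted p = 0.0733). Acot3, a peroxisomal thioesterase, was called only in the contrast of days 1 and 3 (LFC 0.43, edgeR adjusted p = 0.0124). Acadl, the long-chain dehydrogenase, rose in F3 against AL (LFC 0.34, edgeR adjusted p = 0.0153). Its LFC was 0.12 in F1 and 0.25 in F2, and neither was called (edgeR adjusted p = 0.46 and 0.19). Unlike that of Angptl4, the means of Acadl and Acad9 were higher in F2 than in F1. They were 1199 and 1091 normalized counts for Acadl, and 1109 and 1066 for Acad9.

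The genes called with the direction of Acsl1 included 2 further acyl-CoA synthetases and an acyl-CoA dehydrogenase, Acad11. Acsl3, which activates fatty acids at lipid droplets, fell in F1 and F3 (LFC -0.36 and -0.42, edgeR adjusted p = 0.0376 and 0.0105) and fell from F2 to F3 (LFC -0.49, edgeR adjusted p = 0.0116). Its rise from F1 to F2 (LFC 0.43, edgeR adjusted p = 0.0447) was not called with the replicate block, with only the 6 samples compared, with the mural covariate or without any 1 of the F1, F2 or F3 samples. Acsf2, of the same family, fell in F3 (LFC -0.25, edgeR adjusted p = 0.0418). Acad11 fell in F1 and F3 (LFC -0.37 and -0.49, edgeR adjusted p = 0.0169 and 0.00168). Acat2, a cytosolic thiolase, fell in F3 (LFC -0.57, edgeR adjusted p = 0.0264). Its LFC of -0.24 in F1 and -0.34 in F2 did not pass (edgeR adjusted p = 0.40 and 0.36). Unlike that of Acsl1, the mean of Acat2 was not higher in F2 than in F1 (272 and 291 normalized counts). Acot7, a thioesterase, was lower in the contrast of days 1 and 3 (LFC -0.29, edgeR adjusted p = 0.0435). Acaa1b, the measured paralog of Acaa1a, had an LFC of 0.19, 0.17 and 0.15 in F1, F2 and F3 and was not called (edgeR adjusted p = 0.265, 0.483 and 0.352).

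**Figure D4:**
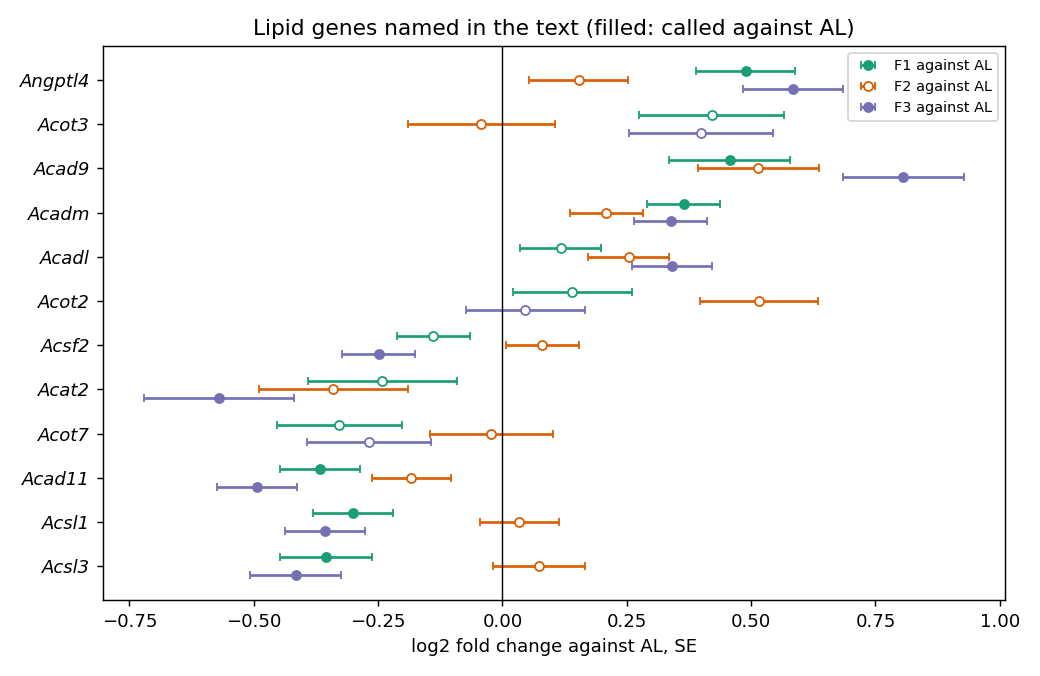
LFC against AL with its SE (horizontal axis) of 12 genes of the lists called in at least 1 comparison (vertical axis), ordered by days 1 and 3 against AL and F2, where filled points have an adjusted p of at most 0.05 against AL. Acad9 and Acadm lie with Angptl4 on the right, and Acsl1, Acsl3 and Acad11 on the left. The F2 point of Acad9 lies to the right of its F1 point, unlike that of Angptl4.

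Among the 1145 genes with a symbol and a mean of at least 100 normalized counts, those most like Angptl4 by Pearson's r of log2 CPM (reads scaled to a common total) over the 12 samples were Agtrap (0.97), Bcar3 (0.95), Agpat4 (0.94), Capn2 (0.92) and Aars (0.92). Symbols were at hand for 2043 of 13050 features, nearly all from the start of the alphabet. The samples share 4 groups, so r is a description. With the group means removed, r was 0.85, 0.69, 0.80, 0.51 and 0.69. The r of the PPAR targets with Angptl4 was 0.63 for Cat, 0.26 for Acaa2, -0.21 for Acot2 and -0.88 for Acsl1.

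Endothelial markers were abundant, with Pecam1 (CD31) at 31655 to 38791 normalized counts, and the summed level of the 7 of 9 tested was 746400 to 792300 in AL, 824900 to 859600 in F1, 836600 to 902800 in F2 and 836100 to 866300 in F3. Members of this list moved in opposite directions: in F3 against AL the glucose transporter gene Slc2a1 rose (LFC 0.52, edgeR adjusted p = 0.00302), whereas Slco1a4 and Slco1c1, organic anion transporters, fell (LFC -0.43 and -0.31, edgeR adjusted p = 0.00846 and 0.0275). Pecam1 and Abcb1a had LFCs of 0.03 and 0.01 and were not called. Slc2a1 was the largest part of the endothelial sum. Its mean was 283810 in AL, 383180 in F1, 375490 in F2 and 406910 in F3. The sum of the 3 of 7 mural markers tested, Acta2, Abcc9 and Anpep, was 1908 to 4372 in AL, 2066 to 2365 in F1, 2451 to 4744 in F2 and 1689 to 4443 in F3. The sum of 3 of 6 astrocyte markers was 4456 to 8876 in AL, 4421 to 5532 in F1, 6411 to 7870 in F2 and 3888 to 7031 in F3. The sums of the tested markers of microglia (6 of 8), oligodendrocytes (1 of 4), red blood cells (1 of 3) and adipocytes (2 of 4) were at most 134 in any sample. The 4 neuronal markers were not analysed here. With the summed mural markers as a covariate, the F3 calls of Angptl4 and Acsl1 stayed and the calls of Acsl1 in F1 (LFC -0.28, edgeR adjusted p = 0.0725) and of Acot2 from F2 to F3 (LFC -0.46, edgeR adjusted p = 0.0513) were lost. The part of other cell types in these results was otherwise not tested.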

How the data were processed

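The authors used STAR and the Rnor_6.0 assembly with Ensembl 91 genes, removed multiply matching reads and counted exonic reads per gene with HTSeq 0.5.3, per the labels and methods. The deposited values are raw counts. The strand setting is not given in the sources used here. The 4 technical replicates per sample were summed, and symbols came from the supplementary tables.

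All 12 samples were fitted with 4 group means in edgeR 4.0.16 (R 4.3.3) under its default quasi-likelihood settings, with TMM, and features with at least 1 read in every sample. An exploratory fit of the real counts came before the test on simulated data. Afterwards 20 combinations of the quasi-likelihood settings were run on the real counts with their calls in view. The defaults were kept as the reported fit, and robust estimation and the newer method are given as alternatives. The edgeR p-values set differences of group means against the spread between samples, which are pools of rats and not single animals. The ratio used a pseudocount of 0.5.

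The genes, lists and comparisons were chosen with earlier results of these data known. Named are the 6 genes, list genes called in any of 7 comparisons, and the 5 genes most like Angptl4. Results for some single genes of the lists are not reported here, and the counts include them. Alternatives were DESeq2 1.42.0, other scalings and filters, only the compared samples, a replicate block, samples left out and a stricter threshold, and a mural covariate was added after seeing the data.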

Additional observations from a re-analysis of the deposited data

Results flagged for a closer look

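For 3 genes the change from AL differed between day 2 and day 3 of the fast by the test of F3 against F2 itself. The LFC of F3 against F2 was 0.43 for Angptl4, -0.39 for Acsl1 and -0.47 for Acot2. Each call was lost when certain single samples were left out, as given with each gene. Groups of 3 samples are too small for the test of single outlying samples.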

How the results depend on the processing

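The number of the 5 genes called moved as follows. In F1 against AL it was 2, and 1 with no filter, with only the 6 samples compared, with the replicate block, without technical replicate d of F1 sample k and with the mural covariate, 0 at an adjusted p of at most 0.01, and 0 to 3 with 1 sample left out. In F2 against AL it was 0, and 1 with DESeq2 and with no filter (0 to 1 with 1 sample left out). In F3 against AL it was 2, and 1 at 0.01 (1 to 3). In F2 against F1 it was 0, and 2 with DESeq2 (0 to 1). In F3 against F2 it was 3, and 1 with only the 6 samples compared and 0 at 0.01 (0 to 3). Directions turned only for LFCs that were not called. With total counts the LFC was -0.0037 for Acsl1 in F2 against AL, -6e-04 for Acot2 in F3 against AL and 3e-04 for Cat in F2 against F1, and with the mural covariate it was -0.026 for Acaa2 in days 1 and 3 against AL and F2. With 1 sample left out, the LFC ranged from -0.035 to 0.12 for Acsl1 in F2 against AL, from -0.049 to 0.14 for Acot2 in F3 against AL, from -0.0048 to 0.34 (F2 against F1), -0.20 to 0.15 (F3 against F2) and -0.029 to 0.14 (days 1 and 3) for Acaa2, and from -0.10 to 0.11 (F2 against F1), -0.093 to 0.12 (F3 against F2) and -0.034 to 0.072 (F3 against F1) for Cat. The causes were not tested. Samples with the same letter were not treated as pairs. Their deviations correlated from -0.02 to 0.14 over 18 pairs (median 0.029), and those of different letters from -0.19 to 0.20 over 36 pairs (median -0.025). These ranges overlap and do not settle whether samples with 1 letter belong together. With the letter as a replicate block, Acsl1 in F1 was not called (LFC -0.30, edgeR adjusted p = 0.0654) and the other calls of the 5 genes stayed. In the 20 combinations of quasi-likelihood settings, chosen after seeing the data, every gene kept its side of the threshold in all 7 comparisons, with the adjusted p of Acsl1 in F1 from 0.0422 to 0.0444. The 4 ratio differences, whose direction the grouping sets, ranged from -0.85 to -0.26 with 1 sample left out. Counting error was at most 6.26% of a value (Acot2).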
